A study of Saccharomyces cerevisiae with 8 samples.

Results

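Yeast cells of mating type a express a small set of genes that alpha cells do not, and 7 of these genes, STE2, STE6, BAR1, MFA1, MFA2, AGA2 and ASG7, are described here. They were found by gene symbol on 14 of the 12800 spots of each array, 2 spots a gene, and are 7 of 5539 genes measured. Each of 8 spotted arrays set 2 RNA samples of 1 Saccharomyces cerevisiae strain against each other: channel 1 held RNA from growth in minimal medium plus 10 mM glycine, and channel 2 RNA from growth in minimal medium without it. Growth was at steady state, up to the early log phase. The strains were BY4741 (2 arrays, replicates 1 and 3), the bas1 strain Y06015 (2 arrays, replicates 1 and 2), the bas2 strain Y03803 (2 arrays, replicates 1 and 2), the gcn4 strain Y00249 (1 array) and the shm2 strain Y02669 (1 array). BY4741 is the haploid a-type parent of the deletion collection, and it carries deletions of HIS3, LEU2, MET17 and URA3 that the deletion strains share. BAS1 and BAS2 (now PHO2) encode transcription factors of purine and one-carbon genes, GCN4 the general amino acid activator, and SHM2 a serine hydroxymethyltransferase.

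In a cells the protein Mcm1 switches the a-specific genes on, and in alpha cells the repressor alpha2, together with Mcm1 and the corepressor Tup1-Cyc8, keeps them off. Their products let an a cell find an alpha cell. MFA1 and MFA2 encode precursors of the pheromone a-factor, the transporter Ste6 exports it, the receptor Ste2 senses the alpha-factor of the partner, the secreted protease Bar1 destroys alpha-factor, Aga2 is the binding subunit of a-agglutinin on the cell surface, and Asg7 dampens the pheromone signal after mating. STE3 (the a-factor receptor) and SAG1 (alpha-agglutinin) belong to alpha cells and are silent in an a strain, so their ratios are used here as a measure of drift. That they were silent on these arrays could not be read from the ratios.

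All values are log2 channel ratios, averaged over the spots of a gene and centred on the median gene of their array. A ratio compares the media within a strain and holds no level of transcript, so the a identity of these strains could not be read from it. The direction of the ratio is not given in the sources used here. GCV1 of the glycine cleavage system, which textbooks describe as induced by glycine, was below 0 on the 6 arrays that had a value for it (-6.27 to -0.20), so a value below 0 is likely a higher level with glycine, and a value above 0 a lower one. GCV3 stood between -3.56 and -0.01 and GCV2 between -3.72 and 0.78, and bas1 replicate 1 was the array on which GCV2 was above 0. Over all spots BY4741 replicate 1 and bas1 replicate 1 correlated at -0.304, so the arrays may not all run the same way, and every sign below stands as deposited.

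Several arrays need caution. For bas2 replicate 1 the title and description say bas2 but the source name says BY4741, and zap1 appears in the title of BY4741 replicate 3. On bas1 replicate 2 5465 of 12800 spots had no value, against 45 to 2302 on the others, and the SD over genes was 2.07 there, against 0.379 to 1.22. Over all spots the 2 bas1 arrays correlated at 0.053 and the 2 bas2 arrays at 0.112, against 0.422 for the BY4741 arrays. Between the strains, bas1 and bas2 correlated at 0.577 on replicate 1 and at 0.502 on replicate 2. Arrays of these 2 strains were thus more alike by replicate number than by strain, which limits the bas1 and bas2 means. A ratio within a strain does not test the strain labels: in their own strains BAS1 stood at -0.69 and -0.39, PHO2 at -1.04 and -0.16 and SHM2 at -0.24, and GCN4 had no value. Because array widths differed, the plot of percentiles gives the place of each gene among all genes of its array, and the text gives it where the order of the arrays depends on the scale. With 1 or 2 arrays a strain, and nothing in the labels on separate cultures, a p-value measures only the spread between these arrays.

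The 7 genes stood mostly above the middle gene. Averaged over the 5 strains, all 7 were positive, from 0.18 for STE6 to 0.97 for STE2, with a median of 0.61. Of the 5311 genes with a value in every strain, 2545 were positive, and the median over the 5311 was -0.02. The bas2 arrays had the highest medians of the 7 (1.15 on replicate 1 and 1.33 on replicate 2). The shm2 array (0.08) and BY4741 replicate 3 (0.14) had the lowest as ratios. By the members' median percentile shm2 was also lowest (55.6), but bas1 replicate 2 (68.6) came next, below BY4741 replicate 3 (71.7). BY4741 replicate 1, gcn4 and both bas1 replicates lay between them, at 0.67, 0.67, 0.57 and 0.57. In none of the 11 comparisons (5 strain means, their average and 5 differences between strains) did a gene of the 7, or any other gene, pass limma's test at an adjusted p under 0.05: the share of genes that passed was 0% throughout, for example 0 of 5512 genes in BY4741 and 0 of 4897 in bas2. At an unadjusted p under 0.05 the average over strains counted 3 of the 6 members with a value on all arrays (STE2, BAR1 and MFA2), against 16.4% of genes. The same threshold counted MFA2 in BY4741 (1 of 7, against 3.37% of genes), STE2 and BAR1 in bas1 (2 of 6, against 16.9%), STE2 in gcn4 (1 of 7, against 11.5%) and no member in shm2 (against 4.72%).

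**Figure D1:**
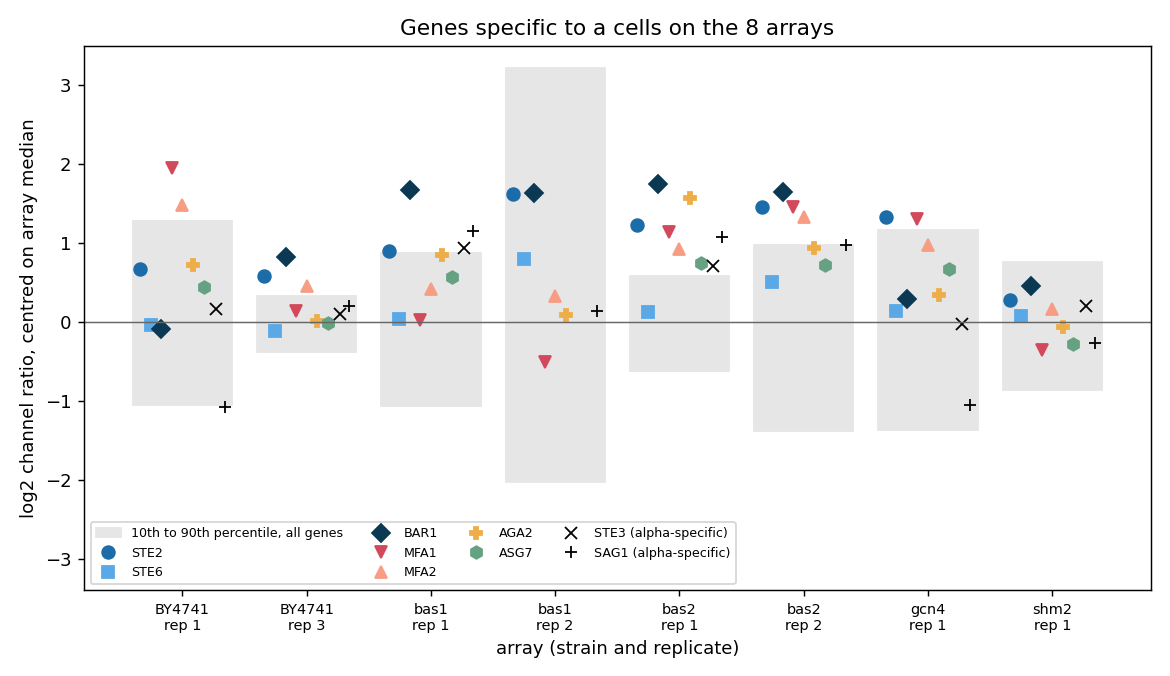
Centred log2 channel ratio (vertical axis) of the 7 a-specific genes and of the alpha-specific STE3 and SAG1 on each of the 8 arrays; each point is the mean of a gene's spots, and the grey box spans the 10th to 90th percentile of all genes. On both bas2 arrays all 7 genes lie above 0, and on the shm2 array they lie between -0.35 and 0.45.

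STE2 (YFL026W), the alpha-factor receptor, was above 0 on all 8 arrays. Its ratio was 0.67 and 0.59 in BY4741, 0.90 and 1.63 in bas1, 1.23 and 1.46 in bas2, 1.34 in gcn4 and 0.27 in shm2. The bas1 and bas2 arrays all lay above the BY4741 arrays, as they did for STE6 and BAR1 (3 of 6 members higher on each bas1 array than on each BY4741 array, against 31.4% of genes), and shm2 lay below every other array. MFA2 was the other member above 0 on all arrays, so that 2 of the 6 members measured on every array had this property, against 4.73% of the 3168 genes. STE2 averaged 0.97 ± 0.16 (SE of the limma fit) over the strains, with a 95% interval of 0.56 to 1.38 and an adjusted p of 0.218 from limma over all genes (0.00147 unadjusted). In percentiles the order differed: the narrow BY4741 replicate 3 array put STE2 at 97.5. That was above both bas1 arrays (90.7 and 86.2), bas2 replicate 2 (93.4) and gcn4 (93.3). The lowest percentile was 69.6 on shm2. With arrays scaled to a common width the bas1 minus BY4741 difference of STE2 was -0.15 in place of 0.63, so its sign depends on the scaling. With bas1 replicate 1 left out, the remaining bas1 array gave 1.63 with an adjusted p of 0.0459, a setting under which 641 of 3447 genes passed in bas1.

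STE6 (YKL209C), the ABC transporter that exports a-factor, had the smallest average of the 7. It stood at -0.04 and -0.12 in BY4741, 0.04 and 0.80 in bas1, 0.13 and 0.51 in bas2, 0.14 in gcn4 and 0.08 in shm2. Both BY4741 arrays lay just below 0 and every deletion array lay above 0. BY4741 replicate 1 and bas1 replicate 1 were nearest, at percentiles 47.7 and 52.8. The share of all genes split this way was not counted. Taken pair by pair, BY4741 and a deletion strain lay on opposite sides of 0 for 10.6% to 28.9% of genes. Its average over strains was 0.18 ± 0.17 (0.10 without bas1 replicate 2), with an interval of -0.24 to 0.60 and an adjusted p of 0.618 (limma). Without centring, the BY4741 mean was 0.41 and the gcn4 and shm2 values -0.12 and -0.05, so the side of 0 on which STE6 lay depends on the centring. STE2 and STE6 ordered the arrays alike (Pearson r = 0.78, Spearman rho = 0.86 over 8 arrays, and r = 0.87 without the shm2 and bas1 replicate 2 arrays). The points of this correlation share strains, and the widest array is among them, so it is a description only.

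BAR1 (YIL015W), the protease that degrades alpha-factor, had its highest ratios on the bas1 and bas2 arrays. It stood at 1.67 and 1.64 in bas1 and at 1.74 and 1.65 in bas2. In BY4741 it stood at -0.08 and 0.82, in gcn4 at 0.29 and in shm2 at 0.45. Each of the 4 bas1 and bas2 arrays therefore lay above each of the other 4, which held for 1 of the 6 members and for 7.04% of the 3168 genes. That grouping was chosen after the values were seen. The percentiles were 98.8 and 86.3 in bas1 and 99.0 and 94.3 in bas2, and they were 45.5 and 98.7 in BY4741, 62.5 in gcn4 and 79.3 in shm2. BY4741 replicate 3 thus lay above bas1 replicate 2 and bas2 replicate 2, and the separation by ratio did not hold by percentile.

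BAR1 averaged 1.66 ± 0.32 in bas1 (n = 2, adjusted p = 0.268, limma) and 1.70 ± 0.32 in bas2 (n = 2, adjusted p = 0.722), with intervals of 0.84 to 2.47 and 0.89 to 2.51. The bas1 mean exceeded the BY4741 mean by 1.29 ± 0.45 (adjusted p = 0.338, limma, 0.0344 unadjusted) and the bas2 mean by 1.33 ± 0.45 (adjusted p = 0.846, 0.0307 unadjusted). Between bas2 and bas1 it differed by 0.04, with an interval of -1.11 to 1.19. These differences from BY4741 share the same control arrays. At an unadjusted p under 0.05 BAR1 was the 1 member counted in bas1 minus BY4741 (against 14.4% of genes) and in bas2 minus BY4741 (against 1.85%), and no member was counted in bas2 minus bas1 (against 2.3%), gcn4 minus BY4741 (against 3.49%) or shm2 minus BY4741 (against 3.79%). BAR1 was also the member whose spots disagreed most: on BY4741 replicate 1 they stood at -0.60 and 0.43, a gap of 1.03, against a median gap of 0.08 over the 55 pairs of spots of the members. Without that array the differences were 0.83 for bas1 and 0.88 for bas2, and without BY4741 replicate 3 they were 1.74 and 1.78. When bas2 replicate 1, whose labels conflict, was left out, the bas2 difference was 1.28.

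**Figure D2:**
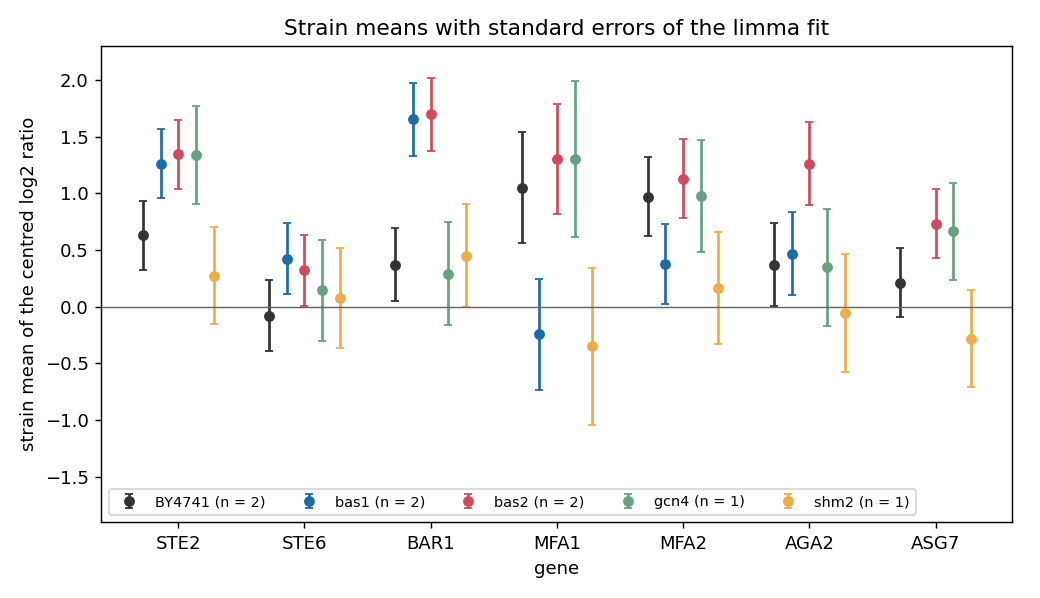
Strain mean of the centred log2 ratio for each a-specific gene, with 2 arrays for BY4741, bas1 and bas2 and 1 for gcn4 and shm2; bars are standard errors of the limma fit, whose spread is shared by the strains. BAR1 stands at 1.66 in bas1 and 1.70 in bas2 against 0.37 in BY4741, while MFA1 stands at -0.24 in bas1 and 1.30 in bas2.

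MFA1 (YDR461W) and MFA2 (YNL145W), the a-factor genes, had a different order of arrays. MFA1 stood at 1.96 and 0.14 in BY4741, 0.02 and -0.51 in bas1, 1.15 and 1.46 in bas2, 1.31 in gcn4 and -0.35 in shm2. It was high on BY4741 replicate 1, both bas2 arrays and gcn4, and near or below 0 on the other 4 arrays. The BY4741 replicates thus lay on opposite sides of that split. MFA2 stood at 1.49 and 0.45 in BY4741, 0.42 and 0.34 in bas1, 0.93 and 1.33 in bas2, 0.98 in gcn4 and 0.16 in shm2, the same arrays being high as ratios. By percentile MFA1 kept that division (92.6 to 97.3 on the high arrays, 26.8 to 71.7 on the others), whereas MFA2 on BY4741 replicate 3 was at 95.1, above BY4741 replicate 1 (92.4), bas2 replicate 2 (92.8) and gcn4 (86.3). Both genes were lower on each bas1 array than on each BY4741 array, which 22.4% of genes were. Both were higher on each bas2 array than on each bas1 array, as was AGA2 (3 of 6 members, against 19.7% of genes), and no member was lower on each bas2 array than on each bas1 array (against 18.6%).

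Across the 8 arrays MFA1 and MFA2 had r = 0.97 and rho = 0.98, and r = 0.98 without BY4741 replicate 1 and bas1 replicate 2. The genes encode nearly the same short peptide, and spots of such similar sequence can share labelled cDNA, so their values are uncertain as separate measurements. The average over strains was 0.61 ± 0.26 for MFA1 (adjusted p = 0.320, limma) and 0.72 ± 0.19 for MFA2 (adjusted p = 0.243, 0.0102 unadjusted). MFA1 differed by 1.55 ± 0.69 between bas2 and bas1 (bas2 minus bas1, adjusted p = 0.914, limma) and by -1.29 ± 0.69 between bas1 and BY4741 (bas1 minus BY4741, adjusted p = 0.387), neither of which passed. The BY4741 replicates decided the size of the latter, which was -0.39 without replicate 1 and -2.20 without replicate 3.

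**Figure D3:**
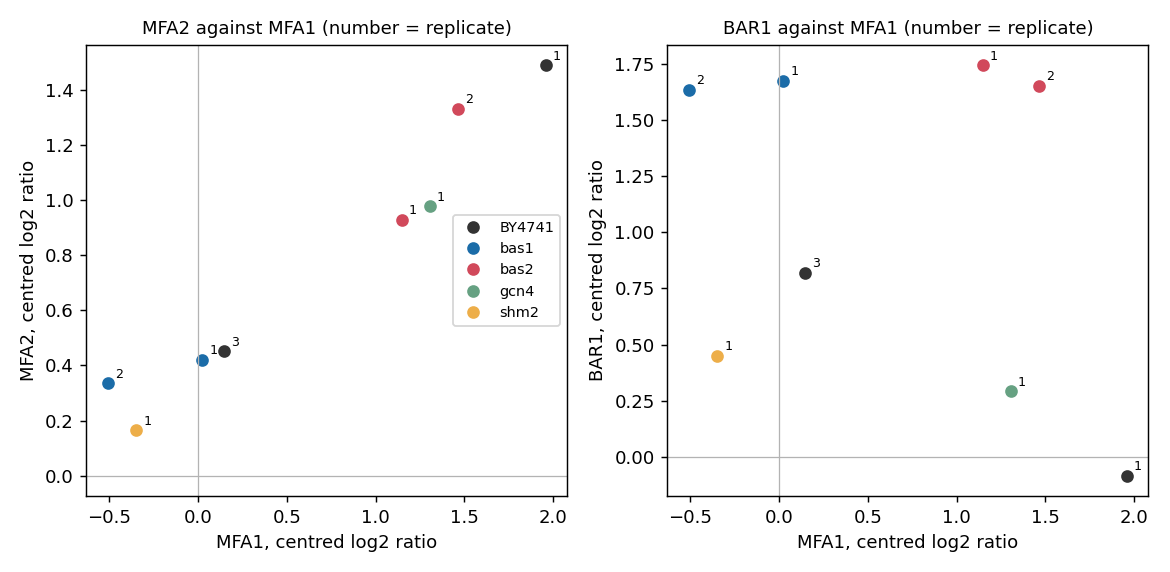
Centred log2 ratio of MFA2 (left) and BAR1 (right) against MFA1, 1 point an array, coloured by strain with the replicate number beside it. MFA1 and MFA2 lie along 1 line (r = 0.97 over 8 arrays), whereas BAR1 stands between 1.64 and 1.74 on the bas1 and bas2 arrays at MFA1 ratios from -0.51 to 1.46.

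Length went along with part of the MFA1 pattern. The coding length in the RefSeq table (assembly R64) was 111 bases for MFA1, 117 for MFA2, 264 for AGA2 and 630 for ASG7, against 1296 for STE2, 1764 for BAR1 and 3873 for STE6. A lowess curve of the centred ratio on coding length stood, at the length of MFA1, at 0.51 on BY4741 replicate 1 and 0.54 on gcn4 but at -0.27 and -0.73 on bas1 replicates 1 and 2. With the curve removed, MFA1 stood at 1.45 and 0.29 in BY4741, 0.30 and 0.22 in bas1, 1.20 and 1.25 in bas2, 0.77 in gcn4 and -0.27 in shm2. The bas1 mean of MFA1 was then 0.26 in place of -0.24, its difference from BY4741 -0.61 in place of -1.29, and the MFA1 and MFA2 correlation 0.67. MFA2 then lay 0.09 above BY4741 in bas1. BAR1 stayed at 1.52 and 1.43 in bas1 and at 1.70 on both bas2 arrays. The curve is thin at this end, since 0.0904% of genes were as short as MFA1, and the part of length in the MFA1 ratios was not tested further.

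AGA2 (YGL032C), the adhesion subunit of a-agglutinin, was highest in bas2. It stood at 0.73 and 0.01 in BY4741, 0.85 and 0.09 in bas1, 1.58 and 0.94 in bas2, 0.35 in gcn4 and -0.06 in shm2. By ratio both bas2 arrays lay above all others, and bas2 replicate 1, at percentile 98.8, gave its highest value. By percentile bas2 replicate 2 (89.7) lay close to bas1 replicate 1 (89.3). The bas2 mean was 1.26 ± 0.37 (n = 2, adjusted p = 0.780, limma, 0.0169 unadjusted) and lay 0.89 ± 0.52 above BY4741 (adjusted p = 0.846). ASG7 (YJL170C), the inhibitor of pheromone signalling, stood at 0.44 and -0.01 in BY4741, 0.57 on the bas1 array that had a value, 0.75 and 0.72 in bas2, 0.67 in gcn4 and -0.28 in shm2. The bas2 arrays were again the highest, though gcn4 lay close behind, and shm2 the lowest. The share of all genes with both bas2 arrays highest was not counted, so these orders are a description only.

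In bas2 the 7 genes had their highest median, though their strain means ranged from 0.32 for STE6 to 1.70 for BAR1. All 7 were above 0 on both arrays, against 31.4% of genes, and 3 of them (STE2, BAR1 and MFA1) stood at 1 or higher on both, against 1.23% of 4897 genes. At an unadjusted p under 0.05 5 of 7 were counted (all but STE6 and ASG7), against 5.55% of genes. The strain median was 1.26 over the 7, beside 0.02 over all genes, and it was 1.33 from replicate 2 alone and 1.15 from replicate 1 alone. The median percentile of the 7 was 97.3 on replicate 1 and 92.8 on replicate 2. STE2, STE6, BAR1, AGA2 and ASG7 were higher on each bas2 array than on each BY4741 array (5 of 7, against 19.8% of genes), none was lower on each (against 20.8%), and the median difference from BY4741 was 0.52. Without centring that median was -0.04, since the array medians themselves were 0.41 and -0.56 in bas2 and 0.65 and 0.33 in BY4741. With bas2 replicate 1 counted as BY4741 the BY4741 median of the 7 was 0.83 in place of 0.37.

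In the other strains fewer members stood at 1 or higher. In bas1 5 of the 6 members with values were above 0 on both arrays, against 35.7% of genes, and BAR1 was the 1 member at 1 or higher on both, against 3.69%. In BY4741 4 of 7 (STE2, MFA1, MFA2 and AGA2) were above 0 on both arrays, against 32.1%, and none stood at 1 or higher on both, against 0.363%. On the single gcn4 array all 7 were above 0, against 50%, and STE2 and MFA1 stood at 1 or higher, against 13.2%. STE2, STE6 and ASG7 were higher on gcn4 than on both BY4741 arrays (3 of 7, against 29.4%) and none was lower than both (against 33.7%). By percentile STE2 on gcn4 (93.3) lay below BY4741 replicate 3 (97.5). On the single shm2 array 4 of 7 were above 0, against 50%, and none reached 1, against 5.72%. STE2, MFA1, MFA2, AGA2 and ASG7 were lower on shm2 than on both BY4741 arrays (5 of 7, against 36.7% of genes), STE6 was higher than both (1 of 7, against 36.6%), and the median difference was -0.43. It was -0.72 without BY4741 replicate 3 and -0.29 without replicate 1, and the single-array strains allow no check between replicates.

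**Figure D4:**
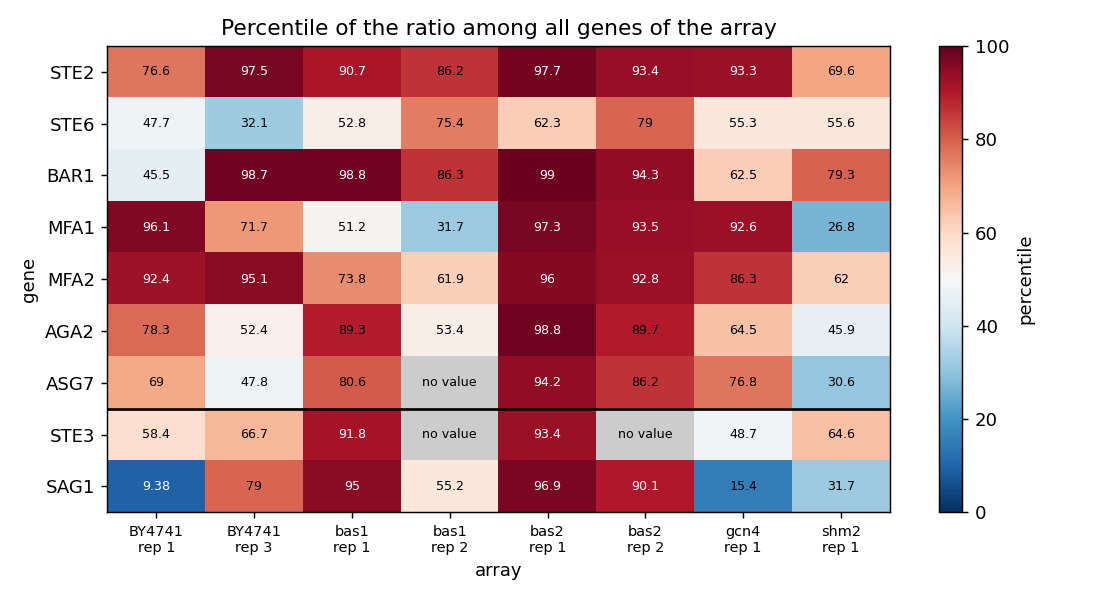
Percentile of each gene's ratio among all genes of the same array, for the 7 a-specific genes (above the line) and STE3 and SAG1 (below it); grey cells had no value. STE2 lies at or above percentile 69.6 on every array and STE6 goes down to 32.1, while SAG1 ranges from 9.38 on BY4741 replicate 1 to 96.9 on bas2 replicate 1.

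The alpha-specific genes, which an a strain does not express, also had ratios away from 0, and their highest ratios were on bas1 and bas2 arrays. STE3 (YKL178C) stood at 0.17 and 0.11 in BY4741, 0.94 on bas1 replicate 1, 0.71 on bas2 replicate 1, -0.03 in gcn4 and 0.20 in shm2, and had no value on the second arrays of bas1 and bas2. SAG1 (YJR004C) stood at -1.08 and 0.20 in BY4741, 1.15 and 0.14 in bas1, 1.08 and 0.98 in bas2, -1.05 in gcn4 and -0.26 in shm2. Both were thus highest on the first bas1 and bas2 arrays, and SAG1 spanned 2.23 between arrays, more than any a-specific gene except MFA1 (2.46). SAG1 was 1.47 ± 0.62 higher in bas2 than in BY4741 (adjusted p = 0.846, limma), a larger difference than that of any a-specific gene.

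Set against these genes, the members stood apart on few arrays. On BY4741 replicate 1 and on gcn4 the median of the 7 exceeded the mean of STE3 and SAG1 by 1.12 and 1.21, and on gcn4 all 7 lay above both. On the bas2 arrays the excess was 0.25 and 0.35 (SAG1 alone on replicate 2), with 4 of 7 members above the alpha-specific genes each time. On bas1 replicate 1 the distance was -0.48, the members being lower, and BAR1 was the 1 member above both. On bas1 replicate 2 it lay 0.42 above SAG1, and on BY4741 replicate 3 and shm2 the distance was -0.01 and 0.11. The other alpha-specific genes, MF(ALPHA)1 and MF(ALPHA)2, stood at 1.00 and 1.32 on bas2 replicate 1, and at 0.04 and -2.16 on gcn4. MF(ALPHA)1 stood at 6.89 on bas1 replicate 2, on 1 spot. How much of the a-specific shift is shared drift was not tested.

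**Figure D5:**
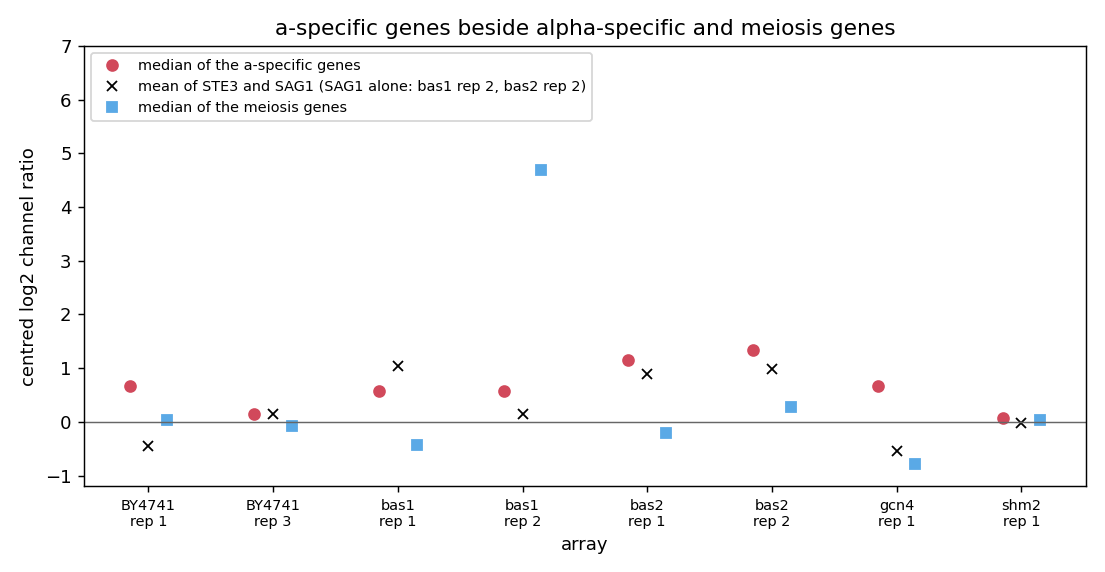
Centred log2 ratio on each array: the median of the a-specific genes, the mean of STE3 and SAG1, and the median of the meiosis genes. The alpha-specific mean lies at 0.90 and 0.98 on the bas2 arrays beside a-specific medians of 1.15 and 1.33, and the meiosis median reaches 4.69 on bas1 replicate 2.

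Meiosis and sporulation genes, low in dividing haploid cells, had a different order of arrays. The median over those of the 24 listed genes that had a value was 0.03 and -0.08 in BY4741, -0.42 and 4.69 in bas1, -0.20 and 0.27 in bas2, -0.78 in gcn4 and 0.04 in shm2. On both bas2 arrays the a-specific median therefore exceeded the meiosis median, by 1.35 and 1.06. On bas1 replicate 2 the distance was -4.12, over the 13 meiosis genes that had a value there. Centred on these genes, the bas1 means of all 6 members with values were below 0, with BAR1 the highest at -0.48. IME2 (-0.78) and MEI4 (-1.87) had the lowest averages over strains among them, and both rested on the gcn4 array, without which they were -0.20 and -0.49. SMK1 (0.73) and SPR3 (1.09) had the highest. SMK1 rested on bas1 replicate 2, without which it was 0.15. SPR3 was 0.48 without that array and 1.70 without bas1 replicate 1, and it stood at 1.88 on gcn4 and 2.13 on shm2.

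Averaged over strains, the medians of the other mating lists lay below the 0.61 of the 7 genes, a difference that was not tested, and 0 genes of these lists passed limma's test in any comparison. In bas1 the order was another: the median was 0.45 over the 6 members with values, 0.77 over 4 genes of a-factor maturation and 1.29 over 10 genes of the mating response. Of 6 genes that modify and trim a-factor, 5 had a positive average over strains (median 0.20), against 2545 of 5311 genes. STE24, a protease of a-factor maturation, was the highest at 0.47, STE14 stood at 0.24, RAM1 at 0.17 (-0.11 without gcn4, 0.40 without bas2 replicate 2) and AXL1 at -0.10 (-0.17 and -0.024 without bas1 replicates 1 and 2). Of 17 genes of pheromone signalling with a value in every strain, 10 were positive (median 0.12), against 2545 of 5311 genes. SST2 (YLR452C), which switches off the G protein downstream of Ste2, averaged 1.00 ± 0.14 and was above 0 on all 8 arrays (0.26 to 1.63), with an adjusted p of 0.217 (limma, 0.000696 unadjusted). It was highest on shm2, where the a-specific genes were lowest. CDC42 stood at 0.44. STE5, the scaffold of the kinase cascade, stood at -0.31 (-0.16 without bas1 replicate 2), and CDC24 at -0.45, which was -0.047 without the shm2 array and -0.67 without bas1 replicate 1.

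Genes induced by pheromone divided further. Of 20 such genes with a value in every strain, 13 had a positive average (median 0.11), against 2545 of 5311 genes. PRM2 (YIL037C) averaged 1.00 (0.66 without bas1 replicate 2) but ranged from -0.65 on gcn4 to 6.38 on bas1 replicate 2, and GIC2 averaged 0.63. KAR4, a transcription factor of karyogamy genes, stood at -0.52 (-0.29 without bas1 replicate 1) and CIK1, a partner of the motor Kar3, at -0.99. Their median was 0.42 in bas2 and -0.04, -0.19 and -0.07 in BY4741, gcn4 and shm2. Of 10 genes that set cell type and had a value in every strain, 8 were positive (median 0.17), against 2545 of 5311 genes. Among them SIR3 stood at 0.37, ASH1 at 0.28 (0.45 without gcn4), SWI5 at -0.29 and SIR4 at -0.34. Of the markers missing from BY4741, MET17 averaged -0.56, a value that rested on gcn4 and was 0.0017 without it. LEU2 averaged -0.21 (-0.061 without gcn4) and HIS3 -0.07 (-0.14 and -0.0017 without bas1 replicates 1 and 2). URA3 had no value on gcn4, stood at 3.47 and 3.36 on the second arrays of bas1 and bas2, and was below 0 on the rest. Of the deleted genes, SHM2 averaged -1.48, BAS1 -0.20 (-0.33 without gcn4, -0.12 without bas2 replicate 2) and PHO2 -0.13 (-0.24 without gcn4, -0.046 without bas2 replicate 1), and GCN4 was above 0 on all 7 arrays with a value (0.11 to 1.16).

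The genes most like the a-specific profile over the 8 arrays lay outside the mating pathway. The profile was the median of the 6 members with a value on all arrays, and 3162 other genes were compared with it. ERG28 (YER044C), a scaffold of ergosterol enzymes, had the highest Pearson r, 0.95, followed by NPT1 (YOR209C), of NAD salvage, with 0.88. EFR3, EDC3 and RPC53 followed with 0.80, 0.80 and 0.79. ERG28 stood at 0.45 and 0.20 in BY4741, 0.58 and 0.21 in bas1, 0.95 and 1.34 in bas2, 0.48 in gcn4 and -0.53 in shm2. By root mean square distance NPT1 was the nearest gene of all (0.28) and ERG28 the third nearest (0.30), while EFR3 was at place 759. With 8 arrays and 3162 genes searched, such values describe these arrays only. ASG7 followed the profile with r = 0.86 over 7 arrays, and SAG1 and STE3 with 0.46 over 8 and 0.47 over 6.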

How the data were processed

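The labels name a GenePix 4000B scanner and GenePix Pro 3.0 for finding spots. The authors deposited log2 channel ratios: 98.4% or more of each array's ratios, off the log scale, were whole steps of 0.001 (to within 0.01 of a step). How dyes, background, filters, direction and normalization were handled is not stated in the labels or files. Channel signals were not used here, so brightness over background is unknown, and precision is limited by how many arrays there were. Of 12800 spots, 11138 carried 1 symbol and 1662 none, and 11128 were named through the RefSeq gene table.

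Spots were averaged per gene and arrays centred on their median over genes (-0.78 to 0.65 before centring). limma 3.58.1 (R 4.3.3) fitted the strain means on all 8 arrays with lmFit and eBayes and tested, two-sided, each mean, their average and 5 differences, with a shared spread (at most 3 residual degrees of freedom, prior of 2.30). gcn4 and shm2 are assumed to vary like the other strains. Adjusted p is Benjamini-Hochberg over all genes with a value on every array compared. The fit was tested on simulated data with shifts far larger than the members' ratios. That simulation does not show whether shifts of the members' size could pass. Members and lists were chosen with earlier results of these data known. Named genes are the members, the 4 alpha-specific genes, GCV1, GCV2 and GCV3, the 2 highest and 2 lowest averages of each other list (a-factor maturation, pheromone signalling, mating response, cell type, meiosis, strain markers, deleted genes) and the 5 genes most like the members' profile. Promoter sequences were not analysed here.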

Additional observations from a re-analysis of the deposited data

Results flagged for a closer look

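In 13 cases, over 4 members and 7 of the 10 pairs of strains, a member stood above 0 on every array of 1 strain and below 0 on every array of the other. Between BY4741 and bas1 1 of 6 members did so, against 22.1% of all genes. From BY4741 to bas2 it was 1 of 7 (12.5% of genes), to gcn4 1 of 7 (10.6%) and to shm2 3 of 7 (28.9%). From shm2 to bas1 it was 1 of 6 (24.1%), to bas2 3 of 7 (21.8%) and to gcn4 3 of 7 (50.5%). No member did so between bas1 and bas2 (0 of 6, against 8.37%), bas1 and gcn4 (0 of 6, 39.5%) or bas2 and gcn4 (0 of 7, 26.5%). Whether the members exceeded these shares was not tested, and the cases below are listed for their values only. STE6 was below 0 in BY4741 and above it in the deletion strains: the BY4741 mean differed by -0.50 from bas1, -0.40 from bas2, -0.22 from gcn4 and -0.16 from shm2 (limma adjusted p = 0.521, 0.846, 1.00 and 1.00). MFA1 was below 0 on the shm2 array, and BY4741, bas2 and gcn4 exceeded it by 1.40, 1.65 and 1.65. AGA2 was just below 0 on shm2 (-0.06), and BY4741, bas1, bas2 and gcn4 exceeded it by 0.43, 0.53, 1.32 and 0.41. ASG7 on shm2 was exceeded by bas2 with 1.01 and by gcn4 with 0.95. The differences of shm2 from BY4741 did not pass limma's test (adjusted p = 1.00 for MFA1 and AGA2), and those of shm2 from bas1, bas2 and gcn4 were not tested. The pairs with gcn4 or shm2 rest on 1 array on that side.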

How the results depend on the processing

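Counted here were the members' strain means, their average, and those differences among BY4741, bas1 and bas2 in which the strains' arrays did not overlap. Differences with overlapping arrays, and all those of gcn4 and shm2 from BY4741, were left out, so the counts cover a part chosen for separation. Of these 837 values of single members under the alternatives, 280 were identical to those reported. A strain mean cannot move where only another strain or the spread is altered. Of the 557 that differed, 38 had the other sign. STE2 in bas1 passed limma's threshold without bas1 replicate 1 (1.63, adjusted p = 0.0459). The causes were not tested. Without centring, STE6 stood at 0.41 in BY4741, -0.12 in gcn4 and -0.054 in shm2, the bas1 minus BY4741 differences were -0.14 for STE2 and -0.27 for STE6, and the bas2 minus BY4741 differences -0.16 for STE6 and -0.036 for ASG7. The members' median was then 0.86 in BY4741, 0.17 in bas1 and 0.41 in gcn4, and differed from BY4741 by -0.47 in bas1, -0.036 in bas2, -0.52 in gcn4 and -1.04 in shm2; 2 genes passed in the average over strains, 1 in bas1 and 13 in gcn4. Centred on the meiosis genes, bas1 means were -0.87 for STE2, -1.71 for STE6, -0.48 for BAR1, -1.76 for MFA2 and -1.67 for AGA2, the STE6 average was -0.11, and the bas1 minus BY4741 differences were -1.53, -1.66 and -0.87 for STE2, STE6 and BAR1. The medians were then -1.69 in bas1, 1.44 in gcn4, 0.39 over strains, -1.86 for bas1 minus BY4741, 2.51 for bas2 minus bas1 and 0.98 for gcn4 minus BY4741. With arrays scaled to a common width, STE2 differed by -0.15 between bas1 and BY4741, and medians were 1.01 in BY4741, 1.67 in bas2, -0.011 for bas1 minus BY4741, 1.03 for bas2 minus bas1 and -0.064 for gcn4 minus BY4741.

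With agreeing spots only, 9 genes passed in the average over strains, 2 in bas1 and 2 in bas2, and the bas1 minus BY4741 median was 0.060. With genes on all 8 arrays only, STE6 in shm2 stood at -0.014. With bas2 replicate 1 placed in BY4741, 1 gene passed in the average over strains, and medians were 0.83 in BY4741, 0.063 for bas1 minus BY4741 and -0.67 for shm2 minus BY4741. With a spread from the compared strains alone, 2 genes passed in BY4741 and 21 in gcn4 minus BY4741. With the form of the array title as a block, AGA2 stood at -0.0026 in gcn4 and 0.29 in shm2, STE6 at -0.10 in shm2, and the gcn4 minus BY4741 median at -0.015. Leaving out spots at a ratio of 1 changed no direction, call or median here beyond the spread between replicates. For the members this is no check, since 0 of their spots stood at that ratio and only the array medians could move. Added after the data were seen, removal of the coding length curve gave AGA2 -0.11 in gcn4 and 0.00091 in shm2, MFA1 0.26 in bas1, MFA2 0.095 for bas1 minus BY4741, STE6 0.087 in BY4741 and a bas1 median of 0.94. Also added then, turning the sign of both bas1 arrays gave bas1 means of -1.26 for STE2, -0.42 for STE6, -1.66 for BAR1, 0.24 for MFA1, -0.38 for MFA2 and -0.47 for AGA2, and bas1 minus BY4741 differences of -1.89 for STE2, -0.34 for STE6 and -2.02 for BAR1; 2 genes passed for bas2 minus bas1, and medians were -0.45 in bas1, 0.38 over strains, -1.09 for bas1 minus BY4741 and 1.62 for bas2 minus bas1.

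With 1 array of BY4741, bas1 or bas2 left out at a time, the members' median varied as follows. It ranged from 0.14 to 0.67 in BY4741, 0.45 to 0.57 in bas1 and 1.15 to 1.33 in bas2. Over strains it ranged from 0.53 to 0.80, with gcn4 and shm2 always kept. Its differences ranged from 0.10 to 0.50 (bas1 minus BY4741), 0.36 to 0.75 (bas2 minus BY4741), 0.32 to 0.43 (bas2 minus bas1), 0.19 to 0.53 (gcn4 minus BY4741) and -0.72 to -0.29 (shm2 minus BY4741). Genes passing ranged from 0 to 641 in bas1, 0 to 493 for bas1 minus BY4741 and 0 to 158 for bas2 minus bas1, each highest without bas1 replicate 1, and from 0 to 4 in gcn4. Averages of named genes without 1 array, given beside them, were also added after the data were seen. Those could leave out gcn4 or shm2 too. Without shm2 the average over strains was 1.14 for STE2, 0.85 for MFA1, 0.86 for MFA2, 0.61 for AGA2 and 0.55 for ASG7. Without gcn4 BAR1 averaged 1.04. For each of these genes that array moved the average most. With 1 BY4741, bas1 or bas2 array left out, ASG7 in BY4741 ranged from -0.014 to 0.44 and BAR1 in BY4741 from -0.084 to 0.82. MFA1 in bas1 then ranged from -0.51 to 0.022 and STE2 in bas1 from 0.90 to 1.63.

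Of the strains, bas1 and bas2 share replicate numbers 1 and 2. Their within-strain differences correlated at 0.542 over 3260 genes. With the replicate number as a block, bas2 minus bas1 gave 0 genes passing. Counted at an unadjusted p under 0.05 were 155 of 3168 genes, against 85 of the same genes without the block. Each of the strains has 1 array of each number, so the block could not move the members' differences and is no check on their size. The median of 0.42 and the differences of 1.55 for MFA1, 0.75 for MFA2 and 0.79 for AGA2 are those without the block. Only the spread and the p-values could change (limma adjusted p = 0.583 for each of the 3 genes with the block). Signal over background is unknown, and 1 or 2 arrays a strain limit every value.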
